A study of Capra hircus with 9 samples.

Results

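The miR-181 family in the goat mammary gland was described here from 5 mature miRNAs, the entries of a miRNA count table whose names begin with chi-miR-181b, chi-miR-181c or chi-miR-181d. They were chi-miR-181b-5p, chi-miR-181b-3p, chi-miR-181c-5p, chi-miR-181c-3p and chi-miR-181d, out of 1359 mature miRNAs (436 known and 923 predicted), and chi-miR-181a was not analysed here. Members were chosen by name and not by their levels, although earlier results of these data were known. The libraries came from whole mammary gland tissue of Laoshan dairy goats of parity 3 with a mean age of 4 years, collected after slaughter in late lactation (LL, 240 days postpartum), in the dry period (DP, 300 days postpartum) and in late gestation (LG, 140 days after mating). Each stage had 3 goats with 1 small RNA library each, and no animal was sampled at more than 1 stage, so p-values measure the spread between these goats.

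A miRNA is cut from a hairpin precursor that carries a mature strand on its 5′ arm (5p) and another on its 3′ arm (3p), and the strand loaded into an Argonaute protein pairs with target mRNAs mainly through its seed. The 5p strands of the miR-181 family share their seed and are known from lymphocyte development, where miR-181 tunes the sensitivity of T cell receptor signalling, and from TGF-beta signalling and the epithelial-mesenchymal transition in epithelial cells and tumours. Because the 5p strands are closely alike in sequence, reads could have been divided between chi-miR-181b-5p, chi-miR-181c-5p and chi-miR-181d by the authors' counting, which was not tested. No member had counts equal to those of another listed miRNA.

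RefSeq listed 3 miR-181 genes on 2 chromosomes of the goat assembly ARS1.2. Members were matched to these genes by name, and no reads were assigned to a gene here. MIR181B was located at chr11:95229302-95229390 (89 bases), inside the span of the protein-coding gene NR6A1, an orphan nuclear receptor, and of the lncRNA LOC108637165. MIR181D was located at chr7:97198840-97198969 (130 bases) and MIR181C at chr7:97199035-97199127 (93 bases), with 65 bases between them, so that both lay in 1 cluster. No other gene overlapped this pair. The nearest protein-coding gene was NANOS3, a regulator of germ cells, 259 bases from MIR181D and 454 bases from MIR181C.

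The counts of a library summed to between 13672653 and 34378995. A level of 0.0873 to 0.219 CPM (counts scaled to a common library total), depending on the library, corresponds to 3 counts, the upper limit when none was seen. Such limits and the counting intervals below cover counting error only, since the reads carried no molecular identifiers. chi-miR-148a-3p took 48.4% to 59.4% of the counts in LL, 8.81% to 10.8% in DP and 39.4% to 44.6% in LG. Levels are given as CPM after TMM scaling, which is designed to adjust for differences in composition. The TMM factors (multipliers of the library totals) were 0.745 to 0.920 in LL, 0.930 to 1.17 in DP and 1.15 to 1.28 in LG. They did not follow the share of chi-miR-148a-3p, so TMM levels cannot be taken as corrected for it. Over the 696 tested miRNAs, log2 fold changes had a median of 0.12, 0.18 and 0.17 in DP vs. LL, DP vs. LG and LL vs. LG under TMM, against 0.49, −0.022 and −0.42 under scaling by size alone. With chi-miR-148a-3p left out before TMM, these medians were 0.026, −0.13 and −0.025. The epithelial markers of the labelled tissue, among them the miR-200 family, were detected in every library, with a summed level between 14060 and 43021 CPM.

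chi-miR-181b-5p made up most of the family at every stage and chi-miR-181d came next. Averaged over the 9 libraries, chi-miR-181b-5p was the 96th most abundant miRNA, chi-miR-181d the 222nd, chi-miR-181c-3p the 403rd, chi-miR-181c-5p the 468th and chi-miR-181b-3p the 824th. Of the family's counts, chi-miR-181b-5p held 93.7% ± 2.54 in LL, 85.0% ± 4.70 in DP and 95.2% ± 1.29 in LG (SD, n = 3). chi-miR-181d held 4.92% ± 1.72, 13.0% ± 3.85 and 3.82% ± 0.867 (SD, n = 3). The lowest share of chi-miR-181d in a DP library was 9.09%, and the highest in an LL or LG library was 6.62%, so DP did not overlap the other stages in this share, while LL and LG overlapped.

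The family as a whole held 0.0244%, 0.0277% and 0.0195% of the counts in LL replicates 1, 2 and 3. It held 0.0693%, 0.0366% and 0.0360% in DP, and 0.0514%, 0.0450% and 0.0498% in LG. All LL libraries lay below all DP and LG libraries in this share, and DP replicate 1 was above every other library. The share depended on what it was taken of. After removal of chi-miR-148a-3p from the totals it was 0.0518% in LL, 0.0525% in DP and 0.0848% in LG, and the summed level after TMM scaling was 296 ± 34.8 CPM in LL, 447 ± 130 CPM in DP and 405 ± 37.9 CPM in LG (SD, n = 3). The stage with the highest mean was thus DP with TMM and LG on the other scales, and no test was run on the sum. The rank of DP with TMM rested on DP replicate 1, without which its mean was 373 CPM.

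**Figure D1:**
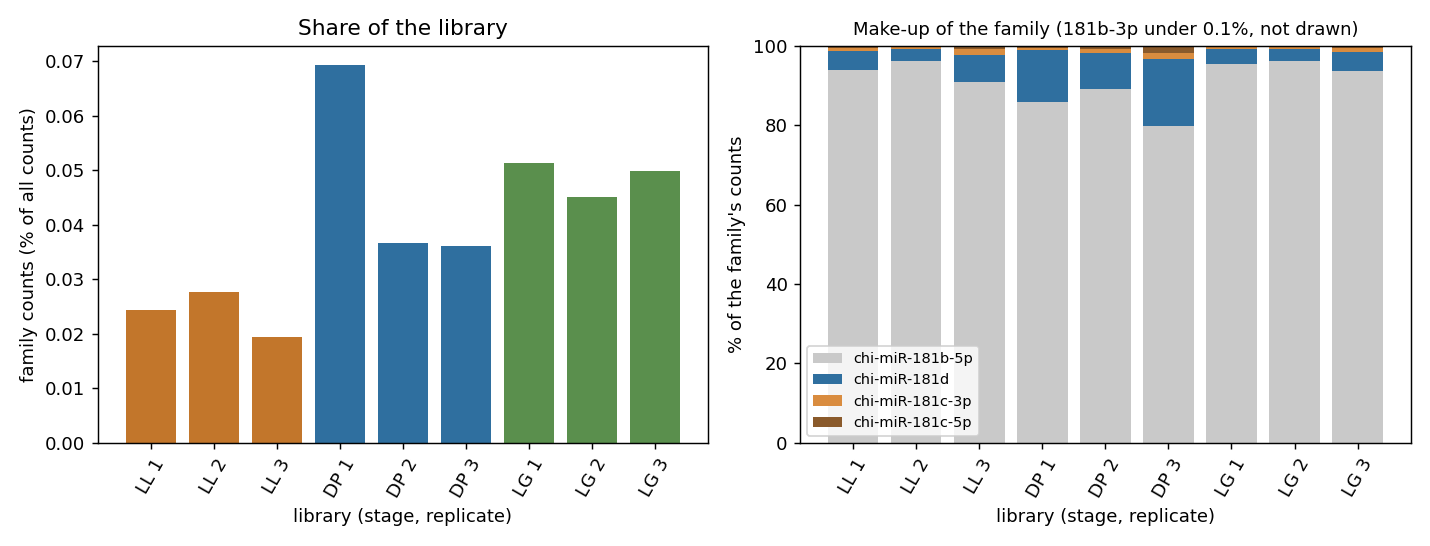
Share of the miR-181 family in all counts of each library (left, % of counts) and the make-up of the family's own counts (right, %), with 1 bar per goat and the stages LL, DP and LG. The share of chi-miR-181d in the family ran from 9.09% to 16.8% in DP and from 2.98% to 6.62% in the other libraries, and chi-miR-181b-3p is too small to draw.

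chi-miR-181d was higher in DP than in both other stages. Its level was 16.2, 9.58 and 17.1 CPM in LL replicates 1, 2 and 3, 77.7, 35.8 and 59.1 CPM in DP, and 16.9, 11.3 and 18.3 CPM in LG. All DP libraries were above all LL and LG libraries, whereas LL and LG overlapped. The means were 14.3 ± 4.12 CPM in LL, 57.5 ± 21.0 CPM in DP and 15.5 ± 3.70 CPM in LG (SD, n = 3), from 145 to 317 counts per library in LL, 779 to 1356 in DP and 286 to 807 in LG.

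In DP vs. LL, chi-miR-181d rose 4.02-fold (log2 fold change 2.01, SE 0.37, adjusted p = 0.00297, edgeR quasi-likelihood test). In DP vs. LG it was 3.71-fold higher (log2 fold change 1.89, SE 0.37, adjusted p = 0.00291, edgeR). These comparisons share the DP libraries. Between LL and LG it differed by −0.11 on the log2 scale (SE 0.36, adjusted p = 0.877, edgeR), and by −0.73 with libraries scaled by size only (adjusted p = 0.226, edgeR). Ordered from the largest rise, chi-miR-181d took place 31 of 696 in DP vs. LL and place 70 in DP vs. LG. It met both thresholds of a call (adjusted p below 0.05, log2 fold change beyond 1 in size) under each of the 18 alternative settings, with log2 fold changes from 1.61 to 2.45 in DP vs. LL and from 1.43 to 2.00 in DP vs. LG. The lowest value in each comparison came from the fit without DP replicate 1, the library with the highest level.

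Of the 4 members tested, chi-miR-181d was the 1 member called in DP vs. LL, where 26.7% of all miRNAs tested were called and 15.1% were called higher in DP. It was also the 1 member called in DP vs. LG, beside 31.5% of all miRNAs tested and 21.6% called higher in DP. None of the 4 was called in LL vs. LG, where 12.8% of all miRNAs tested were. Over all miRNAs tested, this last share fell to 4.79%, 5.24%, 7.81% and 5.99% without LL replicate 1, LL replicate 2, LG replicate 1 and LG replicate 3. At an unadjusted p under 0.05 there were 0 members with edgeR and 0 with limma-voom, and there was 1 with DESeq2. This was chi-miR-181b-5p, with an adjusted p of 0.0752 from DESeq2.

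**Figure D2:**
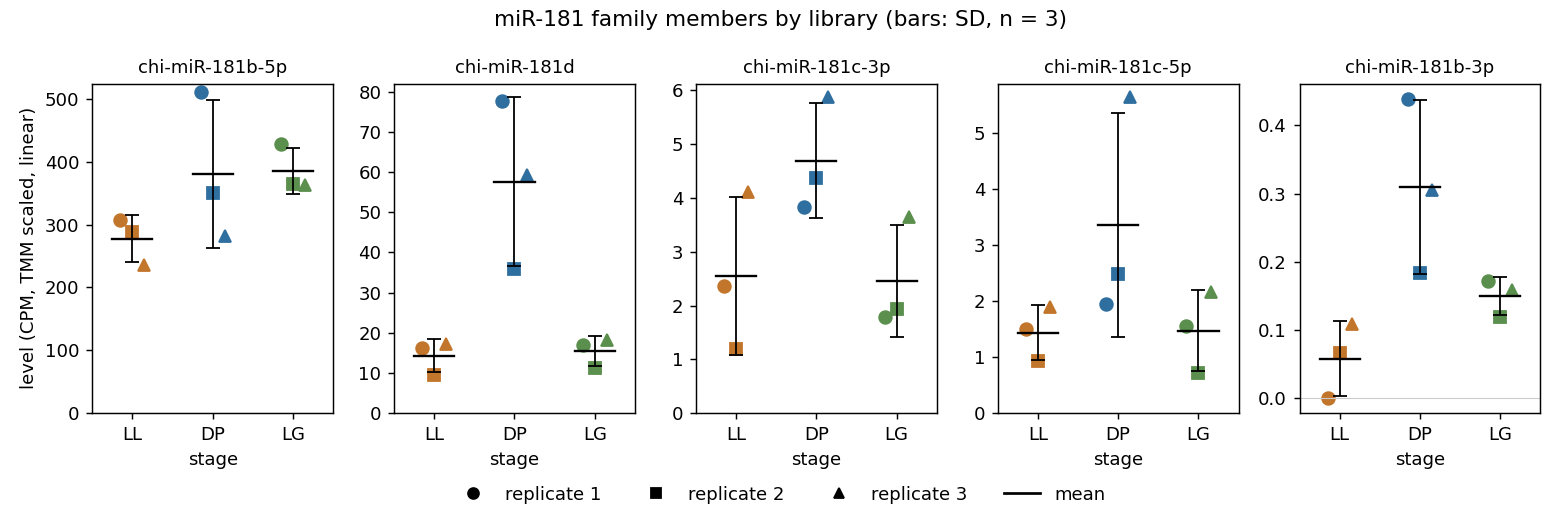
Level of each miR-181 member in each library (CPM after TMM scaling, linear axes with their own range), by stage, with points for single goats, horizontal lines for the stage mean and bars for the SD (n = 3). chi-miR-181d lay between 35.8 and 77.7 CPM in DP and between 9.58 and 18.3 CPM elsewhere, and chi-miR-181b-5p in DP ran from 281 to 511 CPM, overlapping LL and LG.

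chi-miR-181b-5p, the most abundant member, was lowest in LL and passed the test in no comparison. Its level was 307, 289 and 235 CPM in LL replicates 1, 2 and 3, 511, 351 and 281 CPM in DP, and 428, 365 and 364 CPM in LG. DP overlapped both other stages, with DP replicate 1 the highest of all 9 libraries, while all LL libraries were below all LG libraries. The means were 277 ± 37.5 CPM in LL, 381 ± 118 CPM in DP and 385 ± 36.9 CPM in LG (SD, n = 3).

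The log2 fold change of chi-miR-181b-5p was 0.46 in DP vs. LL (SE 0.26, adjusted p = 0.196, edgeR). It was −0.016 in DP vs. LG (SE 0.26, adjusted p = 0.961, edgeR), and from −0.47 (without DP replicate 1, adjusted p = 0.116) to −0.017 under the 18 alternatives. It was −0.48 in LL vs. LG (SE 0.26, adjusted p = 0.223, edgeR). The value in LL vs. LG was negative under all 18 alternatives, from −1.05 to −0.48, and its adjusted p was under 0.05 in 2 of them, with libraries scaled by size alone (−1.05, adjusted p = 0.0372, edgeR) and in the fit of only the 2 stages compared (−0.69, adjusted p = 0.0268, edgeR). The first of these also met the limit on the fold change. In DP vs. LL it was 0.068 in the fit without DP replicate 1, the lowest of the 18 alternatives.

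The strands of MIR181C, the neighbour of MIR181D, were measured at a few CPM. chi-miR-181c-5p was at 1.49, 0.925 and 1.89 CPM in LL replicates 1, 2 and 3, at 1.95, 2.48 and 5.63 CPM in DP, and at 1.54, 0.711 and 2.15 CPM in LG. All DP libraries were above all LL libraries, DP replicate 1 was below LG replicate 3, and DP replicate 3 was far above the other DP libraries. Its log2 fold change was 1.22 in DP vs. LL (SE 0.54, adjusted p = 0.112, edgeR), 1.18 in DP vs. LG (SE 0.52, adjusted p = 0.103, edgeR) and −0.041 in LL vs. LG (SE 0.53, adjusted p = 0.964, edgeR). Without DP replicate 3 the first and second of these were 0.59 and 0.37. These fold changes rest on 14 to 129 counts per library.

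chi-miR-181c-3p was at 2.35, 1.19 and 4.10 CPM in LL replicates 1, 2 and 3, at 3.83, 4.37 and 5.89 CPM in DP, and at 1.78, 1.93 and 3.65 CPM in LG. The DP libraries were above all LG libraries, and LL replicate 3 lay within the DP range. Its log2 fold change was 0.87 in DP vs. LL (SE 0.48, adjusted p = 0.187, edgeR), 0.93 in DP vs. LG (SE 0.47, adjusted p = 0.154, edgeR) and 0.054 in LL vs. LG (SE 0.47, adjusted p = 0.955, edgeR). The sign of the last value changed with the scaling, and the sign of chi-miR-181c-5p in LL vs. LG with the test used. In DP vs. LL and DP vs. LG both MIR181C strands had positive log2 fold changes under all 18 alternatives.

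Counted by overlap, 2 of the 4 tested members, chi-miR-181d and chi-miR-181c-5p, had every DP library above every LL library, beside 21.0% of all miRNAs tested. In DP vs. LG the same was true of 2 members, chi-miR-181d and chi-miR-181c-3p, beside 27.7% of all miRNAs tested. In LL vs. LG, 1 member, chi-miR-181b-5p, had every LL library below every LG library, beside 17.4% of all miRNAs tested. With libraries scaled by size only, all 4 tested members had every DP library above every LL library, beside 31.8% of all miRNAs tested. On that scale chi-miR-181d was the 1 member with every DP library above every LG library, beside 23.0%, and chi-miR-181b-5p and chi-miR-181d had every LL library below every LG library, beside 36.9%.

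**Figure D3:**
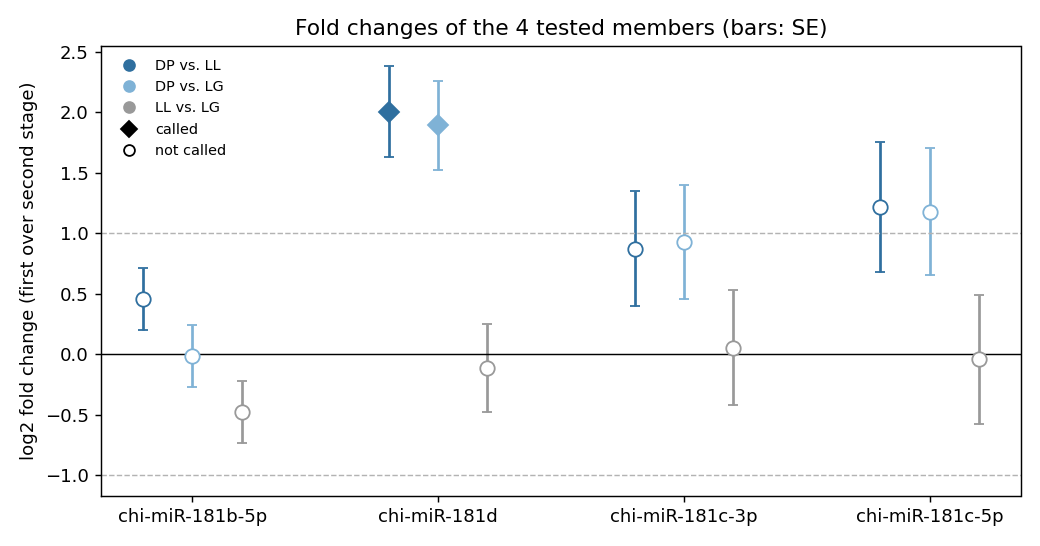
Log2 fold changes (first stage over second, edgeR with TMM) of the 4 tested members in DP vs. LL, DP vs. LG and LL vs. LG, with bars for the SE, dashed lines at the limits of −1 and 1, diamonds for called values and open circles for others. The diamonds are the values of chi-miR-181d in DP vs. LL (2.01) and DP vs. LG (1.89), and the LL vs. LG values of all 4 members lie between −0.48 and 0.054.

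The passenger strand chi-miR-181b-3p was close to the limit of detection and below the filter of 0.5 CPM in at least 3 libraries, so it was not tested. It had 0, 1 and 2 counts in LL replicates 1, 2 and 3, 7, 4 and 7 counts in DP, and 5, 3 and 7 counts in LG. After TMM scaling this was up to 0.108 CPM in LL, 0.184 to 0.439 CPM in DP and 0.118 to 0.172 CPM in LG, while DP and LG overlapped with libraries scaled by size only. Because 0 counts in LL replicate 1 allow up to 3, the number counted in LG replicate 2, LL and LG could not be told apart by library at this depth. With libraries scaled by size only, 3 counts in LL replicate 1 were 0.175 CPM, above DP replicate 2 at 0.171 CPM. LL and DP could thus not be told apart by library either. The summed counts were 3 in LL, 18 in DP and 15 in LG. Relative to the library sizes after TMM, the ratio was 4.59 for DP over LL (95% counting interval 1.34 to 24.3), 1.95 for DP over LG (0.929 to 4.16) and 0.425 for LL over LG (from 0.0789 to above 1). Relative to the total counts it was 5.87 (1.71 to 31.1), 1.64 (0.779 to 3.49) and 0.279 (0.0518 to 0.986), so that the interval for LL over LG included 1 on the TMM scale but not on the other. These intervals do not hold the spread between goats.

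Ratios of members within a library do not depend on how libraries are scaled, and 4 were compared over the stages with an exact permutation test (one-sided on the F statistic, 280 divisions of the 9 libraries, smallest possible p = 0.00357), after 0.5 was added to each count. On these values, chi-miR-181d amounted to 0.0530, 0.0333 and 0.0728 of the count of chi-miR-181b-5p in LL replicates 1, 2 and 3, 0.152, 0.102 and 0.210 in DP, and 0.0395, 0.0310 and 0.0503 in LG. Every DP library was above every other library. The geometric means were 0.0504 in LL, 0.148 in DP and 0.0395 in LG, 2.94-fold higher in DP than in LL and 3.76-fold higher than in LG (exact permutation p = 0.0143). Adjusted over the 4 ratios the p was 0.0571, which missed the threshold. Without DP replicate 3, the exact permutation p before adjustment was 0.05.

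The ratio of the clustered chi-miR-181d and chi-miR-181c-5p overlapped between the stages. With 0.5 added to each count, chi-miR-181d over chi-miR-181c-5p was 8.94 to 10.6 in the LL libraries, 39.3, 14.3 and 10.5 in DP replicates 1, 2 and 3, and 8.46 to 15.5 in LG. DP replicate 1 stood above all others, and DP replicates 2 and 3 were within the range of LG (exact permutation p = 0.279, adjusted p = 0.371). DP replicate 1 was thus the DP library with the most chi-miR-181d and the least chi-miR-181c-5p.

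With strands matched to hairpins by name, the choice of arm differed between the hairpins. At MIR181B the 3p strand made up 0.0229% ± 0.0229 of both arms' counts in LL, 0.0822% ± 0.0282 in DP and 0.0387% ± 0.00568 in LG (SD, n = 3). Every DP library had a higher ratio of chi-miR-181b-3p to chi-miR-181b-5p than every LL and LG library, on at most 7 counts of the 3p strand (exact permutation p = 0.05, adjusted p = 0.1). The margin was small, with 0.000589 in DP replicate 2 (4 counts) and 0.000573 in LL replicate 3 (2 counts). The 95% counting interval of the 4 counts was 1.09 to 10.2, and the 0 counts of LL replicate 1 allow up to 3. Counting error could thus place DP replicate 2 among the LL and LG libraries in this ratio. At MIR181C the 3p strand made up 51.1% to 73.1% of both arms' counts. Its share was 62.0% ± 6.14 in LL, 60.4% ± 8.12 in DP and 63.2% ± 9.77 in LG (SD, n = 3), and the ratio of the arms did not pass the test (exact permutation p = 0.907, adjusted p = 0.907). The exact binomial 95% interval of the share lay above 50% in 5 of the 9 libraries and included 50% in the other 4, LL replicates 1 and 2, DP replicate 3 and LG replicate 1.

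**Figure D4:**
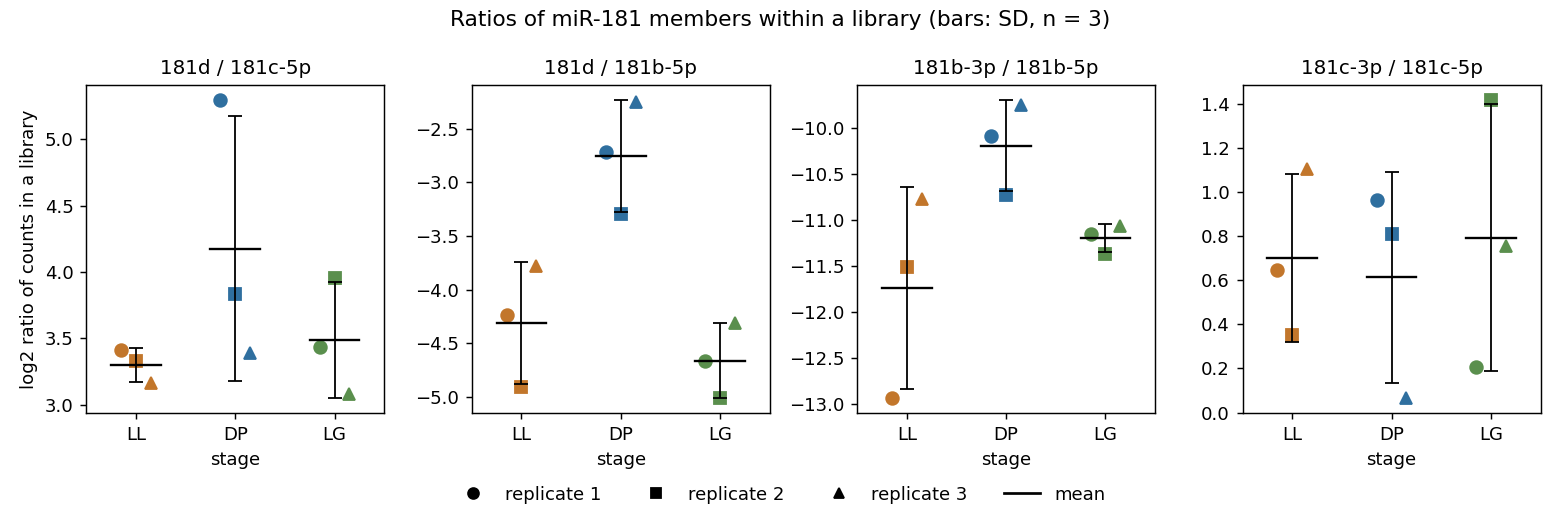
Log2 ratios of the counts of 2 members in the same library (0.5 added to each count), by stage, with points for single goats, horizontal lines for the mean and bars for the SD (n = 3). For chi-miR-181d over chi-miR-181b-5p the DP libraries lie between −3.29 and −2.25 and the others between −5.01 and −3.78, and for chi-miR-181c-3p over chi-miR-181c-5p the 3 stages overlap.

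Over the 9 libraries, which share stage and scaling, the log2 levels of chi-miR-181d and chi-miR-181b-5p had a Pearson r of 0.35. That of chi-miR-181d was 0.77 with chi-miR-181c-3p and 0.76 with chi-miR-181c-5p, and that of chi-miR-181b-5p was −0.10 and −0.14 with these. Among 228 other known miRNAs that averaged at least 10 CPM, chi-let-7e-5p (r = 0.939), chi-miR-455-5p (r = 0.938) and chi-miR-15a-5p (r = 0.930) had the levels most like chi-miR-181d. Without DP replicates 1 and 3, the libraries farthest from the median of chi-miR-181d, these were 0.853, 0.842 and 0.922. chi-let-7e-5p was at 529 ± 82.7 CPM in LL, 1321 ± 97.2 CPM in DP and 499.7 ± 18.4 CPM in LG (SD, n = 3), and, as with chi-miR-181d, DP stood apart from the other stages.

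The miRNAs most like chi-miR-181b-5p were chi-miR-34a (r = 0.888), chi-miR-432-5p (r = 0.879) and chi-miR-382-5p (r = 0.872). Without LL replicate 3 and DP replicate 1 these were 0.754, 0.713 and 0.686. chi-miR-34a, a known target of p53, was at 56.2, 48.1 and 51.7 CPM in LL replicates 1, 2 and 3, 252, 80.9 and 89.2 CPM in DP, and 131, 140 and 115 CPM in LG. As for chi-miR-181b-5p, DP replicate 1 was the highest library and LL the lowest stage.

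Of all 696 miRNAs tested, 15.1% were called higher and 11.6% lower in DP vs. LL, 21.6% and 9.91% in DP vs. LG, and 8.91% and 3.88% in LL vs. LG, and the counts of the lists below stand beside these shares. Of 10 other miRNAs listed for known roles in lymphocyte development, 9 were tested, and 3 rose and 0 fell in DP vs. LL (median log2 fold change 0.53). chi-miR-150, a regulator of B cell maturation, had the largest change (2.16, SE 0.51, adjusted p = 0.00998, edgeR), followed by chi-miR-34a (1.44, SE 0.40, adjusted p = 0.0216, edgeR) and chi-miR-21-5p (1.02, SE 0.30, adjusted p = 0.0257, edgeR). chi-miR-150 overlapped between the stages, at 83.3, 127 and 142 CPM in LL replicates 1, 2 and 3 and 643, 792 and 139 CPM in DP. In DP vs. LG, 4 were called higher and 2 lower (median 0.13), with chi-miR-150 at 2.26 and chi-miR-155-5p at 2.22 against chi-miR-19b-3p at −1.24 and chi-miR-92a-3p at −1.02, members of the miR-17-92 cluster. In LL vs. LG, 1 was called higher, chi-miR-155-5p at 1.41, and 0 lower (median −0.72).

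Of 15 miRNAs listed for the epithelial-mesenchymal transition and TGF-beta signalling, 14 were tested, and 2 rose and 5 fell in DP vs. LL (median 0.18). Those that fell were the miR-200 family, which holds cells in an epithelial state, with chi-miR-200c at −1.23 and chi-miR-429 at −1.21, and those that rose were chi-miR-34a and chi-miR-21-5p. In DP vs. LG, 6 were called higher and 3 lower (median 0.66), led by chi-miR-29b-3p at 2.59 and chi-miR-29a-3p at 2.24, regulators of collagen mRNAs, while chi-miR-141 was at −1.73. In LL vs. LG, 4 were called higher, with chi-miR-29b-3p at 1.66, and 0 lower (median 0.47). These lists share chi-miR-21-5p, chi-miR-34a and chi-miR-155-5p, and their medians stand beside those of all miRNAs tested given above.

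Markers of cell types were measured in the same libraries. In bulk tissue, fewer cells of a type and less RNA per cell cannot be told apart. The 4 immune markers tested of 5 listed had a summed level of 893 to 1265 CPM in LL, 1244 to 2398 CPM in DP and 406 to 637 CPM in LG, overlapping between DP and LL, and 1 was called higher in DP vs. LL, 4 in DP vs. LG and 2 in LL vs. LG. Of these, 3 are also in the list for lymphocyte development. The remaining immune marker, chi-miR-223-3p, went the other way in DP vs. LL (−1.06, SE 0.57, adjusted p = 0.176, edgeR). Of the 8 epithelial markers tested of 9 listed, 1 was higher and 5 lower in DP vs. LL, 3 were lower in DP vs. LG and 0 were called in LL vs. LG. The 5 that fell are those that fell in the list for the epithelial-mesenchymal transition. The other 3, chi-miR-182, chi-miR-183 and chi-miR-96, had positive values, at 0.71, 1.18 and 0.59 in DP vs. LL. In DP vs. LG these were 0.95, 0.89 and 0.27, not called. The sum of the epithelial markers was 35327 to 43021 CPM in LL, 14060 to 22387 CPM in DP and 34934 to 38645 CPM in LG. Most of it was chi-miR-200b, with means of 23644 CPM in LL, 10917 CPM in DP and 19740 CPM in LG. Of 4 markers of fibroblasts and smooth muscle, 2 were higher in DP in both comparisons, chi-miR-214-3p (2.76 in DP vs. LL) and chi-miR-199a-3p (1.91), and 0 were called in LL vs. LG. The other 2, chi-miR-143-3p (−0.43 in DP vs. LL) and chi-miR-145-5p (−0.71), were called in no comparison. The sum of all 4 markers was 75848 to 122842 CPM in LL, 44458 to 146050 CPM in DP, spanning the other stages, and 56041 to 64296 CPM in LG. Most of this sum was chi-miR-143-3p, with means of 82777 CPM in LL, 61297 CPM in DP and 55518 CPM in LG. The part of these cell types in the levels of the miR-181 members was not tested.

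The endothelial marker chi-miR-126-3p was called in no comparison, and it was at 15652 to 22668 CPM in LL, 18742 to 31557 CPM in DP and 14551 to 16183 CPM in LG. Of 6 markers of skeletal muscle, 5 were tested and 1 was at 0 counts throughout. 1 was higher in DP vs. LL, 2 in DP vs. LG and 0 in LL vs. LG, with sums of 720 to 932 CPM in LL, 971 to 3445 CPM in DP and 419 to 529.8 CPM in LG. Of 2 tested red blood cell markers of 3 listed, 0 were called in DP vs. LL, 1 in DP vs. LG and 0 in LL vs. LG, with sums of 363 to 549 CPM in LL, 122 to 1283 CPM in DP and 86.3 to 167 CPM in LG. Their part in the levels of the miR-181 members was not tested either.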

How the data were processed

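Small RNA libraries of 9 goats, 3 per stage, were analysed. The authors used miRDeep2 for alignment of trimmed reads to the ARS1.2 assembly, combined the miRBase miRNAs of the goat with predicted ones, and deposited unnormalized read counts per mature miRNA. The study's supplementary count table holds other values for most miRNAs of these libraries. How the tables relate is not given in the sources used here, and every value here is from the deposited table. The submitters' processing notes name FastQC 0.11.9, cutadapt 4.2 and Bowtie 1.1.1, whereas the study's methods name Trimmomatic. The deposited column of LL replicate 3 holds 2 values that are not whole, so its unit was taken to be expected counts, and it was rounded. The authors' FPKM filter and RUVSeq step were not applied. Early and peak lactation and mRNA were not analysed here.

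Differential expression was tested with edgeR 4.0.16 (quasi-likelihood test, TMM, R 4.3.3) in 1 fit of all 9 libraries with stage as the only term, on 696 miRNAs (0.5 CPM or more in 3 or more libraries), with Benjamini-Hochberg adjustment over all 696. A call required an adjusted p below 0.05 and a log2 fold change beyond 1 in size. The SE of a log2 fold change was derived from the F statistic of its test (size of the change over the root of F). The script was tested on simulated data. Ratios were tested in Python 3.11.15 with scipy 1.17.1. As alternatives, other scalings and filters, fits of only the 2 stages compared, removal of each library in turn, a replicate block, limma-voom (limma 3.58.1) and DESeq2 1.42.0 were run. Besides the members and chi-miR-148a-3p, the miRNAs named were the 3 most like each member with a mean of at least 10 CPM (Pearson correlation of log2 CPM, prior count 2) and the largest changes within lists of miRNAs of lymphocyte development, of the epithelial-mesenchymal transition and of 6 cell types. Listed miRNAs without a matching name were not used here. Members and lists were chosen with earlier results of these data known. Coordinates are from the RefSeq annotation of ARS1.2. No sequences were used here.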

Additional observations from a re-analysis of the deposited data

How the results depend on the processing

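Over 18 alternatives, chi-miR-181d was called in DP vs. LL and DP vs. LG under each, with adjusted p up to 0.0168 and 0.0276. The number of members called was 2 instead of 1 in DP vs. LL with library size only, which added chi-miR-181c-5p (log2 fold change 1.60, adjusted p = 0.0401), and 1 instead of 0 in LL vs. LG, which was chi-miR-181b-5p. This scaling also moved the calls over all 696 miRNAs, to 165 higher and 59 lower in DP vs. LL from 105 and 81, and to 30 higher and 90 lower in LL vs. LG from 62 and 27. The miRNAs called higher in DP vs. LL fell to 61 without LL replicate 1, 64 without LL replicate 2 and 63 with only the 2 stages compared. Those called higher in DP vs. LG fell from 150 to 95, 94 and 87 without LG replicates 1, 2 and 3 and were 92 of the 483 miRNAs tested with at least 10 counts in every library. All calls in LL vs. LG rose from 89 to 141 with only the 2 stages compared. The calls lower in LL vs. LG, 27 in the main fit, were 73 in that fit, 59 with DESeq2 and 12 without LL replicate 1 or 2. Calls lower in DP vs. LG rose from 69 to 114 without DP replicate 1. With the replicate block, 2 members were called in DP vs. LG, chi-miR-181c-5p being the addition (1.19, adjusted p = 0.0462). The replicate numbers named different goats, so the block pairs no animals. Same-numbered libraries had correlations of −0.10 to 0.21, and 6 of the 9 libraries were closest to one of their own number. In LL vs. LG, chi-miR-181c-3p, at 0.054, was at −0.078 with upper quartile scaling, −0.60 with library size only, −0.15 with TMM computed in the absence of chi-miR-148a-3p, −0.12 with DESeq2, −0.031 with limma-voom, −0.25 with no filter, −0.20 with at least 10 counts in every library, −0.17 with only the 2 stages compared, and −0.56 to 0.25 with 1 library left out. In the same comparison chi-miR-181c-5p, at −0.041, was at −0.67 with library size only, 0.031 with limma-voom, 0.015 with the replicate block and −0.53 to 0.13 with 1 library left out. The causes were not tested. With 1 library left out, the DP minus LL difference of the log2 ratio of chi-miR-181d over chi-miR-181b-5p ran from 1.26 to 1.83, with 1.31 (exact permutation p = 0.05) without DP replicate 3. That of chi-miR-181b-3p over chi-miR-181b-5p, at 1.55, ran from 0.95 without LL replicate 1 (exact permutation p = 0.0857) to 2.04 without LL replicate 3 (exact permutation p = 0.00357, the smallest possible). For this ratio the exact permutation p was 0.175 without DP replicate 1, 0.207 without DP replicate 3 and 0.0643 with 1 added to each count. The difference of chi-miR-181c-3p over chi-miR-181c-5p, at −0.088, ran from −0.26 to 0.19 and was positive without LL replicate 3 (0.11) or DP replicate 3 (0.19). That of chi-miR-181d over chi-miR-181c-5p, at 0.87, was 0.31 without DP replicate 1 and 1.27 without DP replicate 3, the lowest and highest values. The depth limits the MIR181C strands and, most of all, chi-miR-181b-3p, which had at most 7 counts in a library.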
